A study of Rattus norvegicus with 8 samples.

Results

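p53 target genes of the stress and apoptosis programs were followed in primary rat nucleus pulposus (NP) cells, which fill the soft centre of the spinal disc, after knockdown of the deacetylase gene Sirt6. The genes were chosen by name: Mdm2, Ccng1, Bax, Bbc3, Gadd45a, Sesn1, Sesn2, Btg2 and Fas, 9 in all. Under these names, 8 had a row among the 32883 genes counted, and all 8 passed the low-count filter, among 13250 genes tested. Bbc3, which encodes the pro-apoptotic protein PUMA, is not analysed here. The cells were isolated from adult Sprague Dawley rats and infected with a mixture of lentiviral ShSirt6 clones (Sirt6-KD, libraries S5 to S8, n = 4) or with a control ShRNA virus (Sirt6-Ctrl, libraries S1 to S4, n = 4). Both groups thus carried a lentivirus and were kept in the same serum-containing DMEM, and the knocked-down cells were a mixed population rather than 1 clone. After infection the medium was replaced with one that held puromycin. Cells for protein were kept at low oxygen before extraction, and the methods of the study do not state the oxygen level of the RNA cultures. The series describes cells of 4 rats, each with its own control, but no label ties a knockdown library to a control library, so p-values measure the unpaired spread between libraries. Messenger RNA was measured by RNA-seq as reads counted per gene, and levels are given as CPM, the counts on a gene scaled to the library total and corrected by TMM, a normalization that balances most genes between libraries.

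The transcription factor p53 is a sensor of DNA damage and other stress. It is held at a low level by the ubiquitin ligase MDM2, whose gene is itself a p53 target, so that active p53 raises its own inhibitor. Its other targets include genes that slow the cell cycle or aid repair (Gadd45a, Btg2), genes that lower growth signalling and oxidative stress (Sesn1, Sesn2), and genes of the mitochondrial and death receptor routes to apoptosis (Bax, Bbc3, Fas). Much of the control of p53 acts on the protein, which these RNA data do not measure.

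The promoters of these genes were read from RefSeq on GRCr8 as windows of 300 bases, from 250 bases before to 50 after each annotated start, whereas the reads were aligned to Rnor_6.0. Windows were found for 7 of the 9 genes, all but Bax and Bbc3. They were searched on both strands for the p53 decamer, the palindromic 10-base consensus to which p53 binds in adjacent pairs. The decamer was present in 3 of the 7 windows and in 7.98% of all 33465 windows. The 3 windows that hold it are shown for the position of the decamer, which is in capitals, and they lie at chr10:25684827-25685126 (minus strand) for Ccng1, at chr20:46948469-46948768 (plus strand) for Sesn1 and at chr4:97486750-97487049 (minus strand) for Gadd45a.
Ccng1: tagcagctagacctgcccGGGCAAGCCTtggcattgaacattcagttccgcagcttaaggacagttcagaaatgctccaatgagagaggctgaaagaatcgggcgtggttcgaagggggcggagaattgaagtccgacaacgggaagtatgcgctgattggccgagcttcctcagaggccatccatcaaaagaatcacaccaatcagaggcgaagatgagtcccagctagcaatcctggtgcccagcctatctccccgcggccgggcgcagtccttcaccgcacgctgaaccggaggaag
Sesn1: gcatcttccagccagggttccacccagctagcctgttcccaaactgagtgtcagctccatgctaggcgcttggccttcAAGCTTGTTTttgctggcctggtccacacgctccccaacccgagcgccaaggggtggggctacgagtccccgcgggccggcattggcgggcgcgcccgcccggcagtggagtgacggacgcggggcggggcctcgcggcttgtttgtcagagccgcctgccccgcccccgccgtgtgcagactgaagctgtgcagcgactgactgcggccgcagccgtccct
Gadd45a: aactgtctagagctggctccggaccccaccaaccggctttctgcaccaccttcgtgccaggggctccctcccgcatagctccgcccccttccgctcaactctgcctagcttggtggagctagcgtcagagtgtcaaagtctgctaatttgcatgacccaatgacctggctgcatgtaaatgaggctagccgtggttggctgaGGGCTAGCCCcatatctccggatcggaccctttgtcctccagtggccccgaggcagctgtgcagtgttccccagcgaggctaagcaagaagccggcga
Counted from the annotated start, the decamer began 232 bases before it in Ccng1 (GGGCAAGCCT), 172 bases before it in Sesn1 (AAGCTTGTTT) and 48 bases before it in Gadd45a (GGGCTAGCCC). In Ccng1 the 10 bases just before the decamer resembled the consensus as well, so that a run of 20 bases (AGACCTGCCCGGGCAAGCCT) matched an adjacent pair of decamers with 1 mismatch. Such a run was found in 24 of the windows (0.0717%), a search that was added after the sequences had been seen. The letters of the decamer are not in the windows of Mdm2, Sesn2, Btg2 and Fas, and sequence outside the windows was not searched for any gene.

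The libraries held 31994838 to 40124813 counts (Sirt6-Ctrl) or 32382957 to 36600792 (Sirt6-KD). ERCC spike-ins, synthetic RNAs added during sample preparation, made up 2.97% to 9.80% of Sirt6-Ctrl counts, with S2 (9.80%) and S1 (6.27%) highest, and 2.15% to 2.47% of Sirt6-KD counts. Shares differed at p = 0.0286 by a two-sided exact permutation test, the lowest value possible for 4 libraries per group. S1 and S2 thus stand apart in their share of spike-ins, and values without both of them are given for the targets and for named genes whose calls change. The targeted gene Sirt6 was at 52.7 ± 3.78 CPM (SD, n = 4) in the controls and at 20.6 ± 1.07 CPM after knockdown, a log2 fold change of -1.35 (SE 0.13, adjusted p = 0.000713, edgeR's quasi-likelihood test). With libraries scaled to their spike-ins it was -0.36 and not called (edgeR adjusted p = 0.567). Of 14 NP marker names, 8 had a row, and their summed level was 351 to 467 CPM in controls and 437 to 523 CPM after knockdown, with Krt8 and Car3 called lower. The broadly expressed Hif1a had the highest mean of the 8, and without it, a choice made after its values were seen, the other 7 summed to 164 to 248 CPM and 136 to 150.4 CPM, with 6 of the 7 fold changes negative. Krt18, Krt19, Tbxt, Shh and Col2a1, which would define the cell type further, are not analysed here. Among markers of other cells, 7 of 8 annulus fibrosus and fibroblast genes were measured. They summed to 14426 to 27042 CPM in controls and 8574 to 18257 CPM after knockdown, with 3 called lower (Col3a1, Scx, Dcn). Most of that sum was Col1a1, which was not called (means 17093 and 11032 CPM, log2 fold change -0.63) and overlapped between the groups. Col1a2 (-0.089) and Mkx (-0.48) were not called either. The Col1a2 row was low, with means of 1.75 and 1.64 CPM, far below Col1a1. Pdgfra, also not called, was the only gene of the list with a positive log2 fold change (0.82). The 4 smooth muscle genes summed to 214 to 2523 CPM and 710 to 2038 CPM, highest in S4 and S8. The 2 immune markers measured of 6 (Cd68, Cd14) summed to 11.0 to 29.0 and 14.5 to 23.4 CPM, the 2 osteoblast markers measured of 4 to 2.57 to 5.60 and 0.597 to 1.98 CPM with Alpl called lower, and Tek, the 1 endothelial marker measured of 5, was at 0 to 0.509 and 0.179 to 0.592 CPM. The part of any of these in the results was not tested.

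Of the 8 p53 targets, 4 fell in Sirt6-KD (Mdm2, Ccng1, Sesn1 and Sesn2) and 0 rose, where a call needs both an adjusted p under 0.05 and a change of more than 1.5-fold. Over all genes tested, 10.7% were called lower and 8.02% higher by the same rule. These are changes relative to most genes, and with libraries scaled to their spike-ins only Sesn1 of the 4 stayed below 0. Bax, Gadd45a, Btg2 and Fas were not called, and 7 of the 8 targets had a negative log2 fold change, with a median of -0.62 beside -0.016 over all genes. In Mdm2, Ccng1 and Sesn2 all 4 Sirt6-KD libraries lay below all 4 Sirt6-Ctrl libraries, which held for 15.6% of all genes, while 14.8% had all Sirt6-KD libraries above. In bulk samples, fewer cells that express a gene and less RNA of it per cell cannot be told apart.

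**Figure D1:**
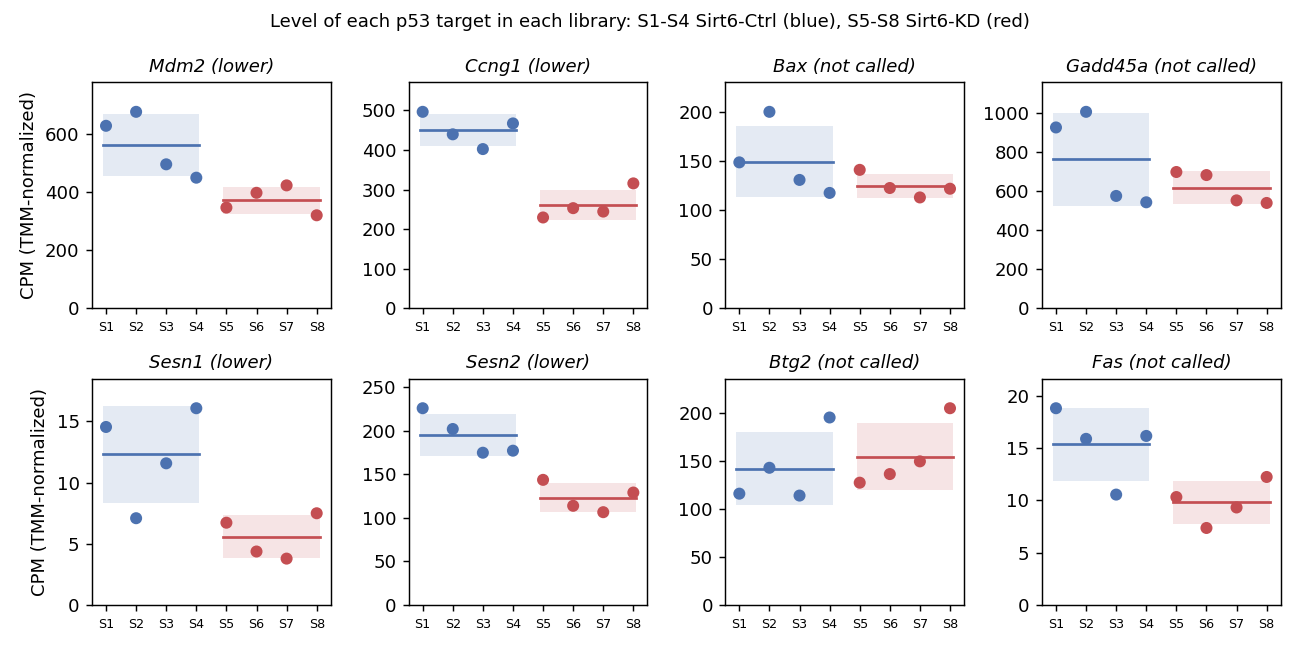
Level of each of the 8 p53 targets in each library (TMM-normalized CPM, axis from 0), with S1 to S4 Sirt6-Ctrl in blue, S5 to S8 Sirt6-KD in red, lines for group means and bands for the SD (n = 4). The groups are apart for Mdm2, Ccng1 and Sesn2 and overlap for the other 5, among them Sesn1, which was called lower.

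Mdm2 (ENSRNOG00000006304), the gene of the ubiquitin ligase that marks p53 for degradation, was at 627, 675, 495 and 449 CPM in the controls S1, S2, S3 and S4. In Sirt6-KD it was at 346 CPM in S5, 397 in S6, 423 in S7 and 320.0 in S8. The highest Sirt6-KD library was below the lowest Sirt6-Ctrl library, and the highest controls were S1 and S2, the libraries with the largest spike-in share. The means were 562 ± 107 and 372 ± 46.8 CPM (SD, n = 4), a log2 fold change of -0.60 (SE 0.17, 95% interval -0.96 to -0.23) with an adjusted p of 0.0289 by edgeR's quasi-likelihood test. That value was just past the fold threshold of 0.58 on the log2 scale. The call was kept without S3 (-0.65) and without S4 (-0.69). It was lost without S1 (-0.51), S2 (-0.48), S5 (-0.56), S6 (-0.63), S7 (-0.66) or S8 (-0.49), and without S1 and S2 together the log2 fold change was -0.34 (edgeR adjusted p = 0.135).

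Ccng1 (ENSRNOG00000003256), which encodes cyclin G1, a p53-induced partner of protein phosphatase 2A in the MDM2 circuit, was at 496, 439, 402 and 467 CPM in the controls S1, S2, S3 and S4. In Sirt6-KD its level was 229.5 CPM in S5, 253 in S6, 244 in S7 and 315 in S8. All Sirt6-KD libraries were below all controls, and here the control S4 lay between S1 and S2. The mean went from 451 ± 40.0 to 261 ± 37.9 CPM, a log2 fold change of -0.79 (SE 0.14, 95% interval -1.10 to -0.48, adjusted p = 0.00599, edgeR's quasi-likelihood test). Among the 8 targets this was the smallest adjusted p, and the call was kept with any 1 library left out (-0.86 to -0.72) and without S1 and S2 (-0.73).

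The falls of Mdm2 and Ccng1 were also set against each other. The log2 ratio of Mdm2 to Ccng1 counts within a library was 0.30 ± 0.28 in Sirt6-Ctrl and 0.51 ± 0.34 in Sirt6-KD, and the difference of 0.21 (0.094 without S4 to 0.38 without S8) was within the spread between libraries (exact two-sided permutation test, p = 0.343).

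The sestrins are stress-induced proteins that restrain mTORC1 and help to recycle peroxiredoxins, and both genes of this list fell. Sesn2 (ENSRNOG00000042785) was at 226, 202, 175 and 177 CPM in the controls S1 to S4 and at 144, 114, 107 and 129 CPM in the knockdown libraries S5 to S8. The groups did not overlap, with means of 195 ± 24.0 and 123 ± 16.5 CPM. The log2 fold change was -0.66 (SE 0.14, 95% interval -0.97 to -0.35, adjusted p = 0.0113, edgeR's quasi-likelihood test). It stayed past both thresholds when S2 or any of S3 to S8 was left out. It fell short of the fold threshold without S1 (-0.55) and without S1 and S2 (-0.50), where the edgeR adjusted p was 0.0390 and 0.0451.

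Sesn1 (ENSRNOG00000000302) had few reads, 145 to 663 counts per library. It was at 14.5, 7.08, 11.6 and 16.1 CPM in the controls S1 to S4 and at 6.71, 4.36, 3.78 and 7.49 CPM in the knockdown libraries S5 to S8. S2 was below S8, so the groups overlapped by that pair of libraries, and the spread was wide in both (32.1% of the mean in each). The means were 12.3 ± 3.96 and 5.59 ± 1.79 CPM, a log2 fold change of -1.14 (SE 0.34, 95% interval -1.90 to -0.38, adjusted p = 0.0378, edgeR's quasi-likelihood test). This was the largest fold change among the 8 targets and also the one with the widest interval. The call was kept without S2 (-1.32), without S3 (-1.17) and without S1 and S2 (-1.30), and lost without S1 (-1.03), S4 (-0.99), S5 (-1.24), S6 (-1.04), S7 (-0.99) or S8 (-1.28). The ratio of Sesn2 to Sesn1 differed by 0.47 on the log2 scale, from 4.04 ± 0.57 to 4.51 ± 0.32, which was within the spread (exact two-sided permutation test, p = 0.20), and by 0.27 without S4 and 0.73 without S2.

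The apoptosis genes of the list did not pass. Bax (ENSRNOG00000020876), whose product opens pores in the outer mitochondrial membrane, was at 149, 200.2, 131 and 118 CPM in the controls S1 to S4 and at 141, 123, 113 and 122 CPM in the knockdown libraries S5 to S8. All 4 Sirt6-KD libraries lay below the highest 2 controls, and 3 of them were above the lowest control. The log2 fold change was -0.26 (SE 0.17, 95% interval -0.64 to 0.11, adjusted p = 0.297, edgeR's quasi-likelihood test). Without S1 and S2 it was 0.015, on the other side of 0.

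Fas (ENSRNOG00000019142), the death receptor through which Fas ligand activates caspase-8, was at 18.8, 15.9, 10.5 and 16.1 CPM in the controls S1 to S4 and at 10.3, 7.35, 9.31 and 12.2 CPM in the knockdown libraries S5 to S8. The groups overlapped through S3, the lowest control, which was below S8. The means were 15.3 ± 3.46 and 9.79 ± 2.03 CPM, a log2 fold change of -0.65 (SE 0.25, 95% interval -1.21 to -0.084, adjusted p = 0.0928, edgeR's quasi-likelihood test). This was close to the value of Sesn2 but missed the threshold on the adjusted p, and without S3 it passed (-0.79, edgeR adjusted p = 0.0332). Without S1 it was -0.51 (edgeR adjusted p = 0.232), and without S1 and S2 -0.44 (edgeR adjusted p = 0.294).

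Gadd45a and Btg2, which act in growth arrest and repair, did not pass either. Gadd45a (ENSRNOG00000005615) encodes a small acidic protein that binds PCNA and stress kinases, and it was at 928, 1008, 577 and 544 CPM in the controls S1 to S4 and at 699.6, 684, 554 and 541 CPM in the knockdown libraries S5 to S8. Its controls fell into a higher pair, S1 and S2, and a lower pair within the range of Sirt6-KD. The log2 fold change was -0.30 (SE 0.22, 95% interval -0.78 to 0.18, adjusted p = 0.346, edgeR's quasi-likelihood test), and without S1 and S2 it was 0.15.

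Btg2 (ENSRNOG00000003300), an antiproliferative gene whose product binds mRNA deadenylases, was at 116, 143, 114 and 195 CPM in the controls S1 to S4 and at 127, 136, 149.5 and 205 CPM in the knockdown libraries S5 to S8. It was the 1 target with a positive log2 fold change (0.12, SE 0.21, 95% interval -0.34 to 0.58, adjusted p = 0.712, edgeR's quasi-likelihood test). The highest library of each group was S4 and S8, which were also the highest of their groups in the summed smooth muscle markers, and the part of this in the level of Btg2 was not tested. Without S8 the log2 fold change was -0.0072, and without S1 and S2 it was 0.011.

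**Figure D2:**
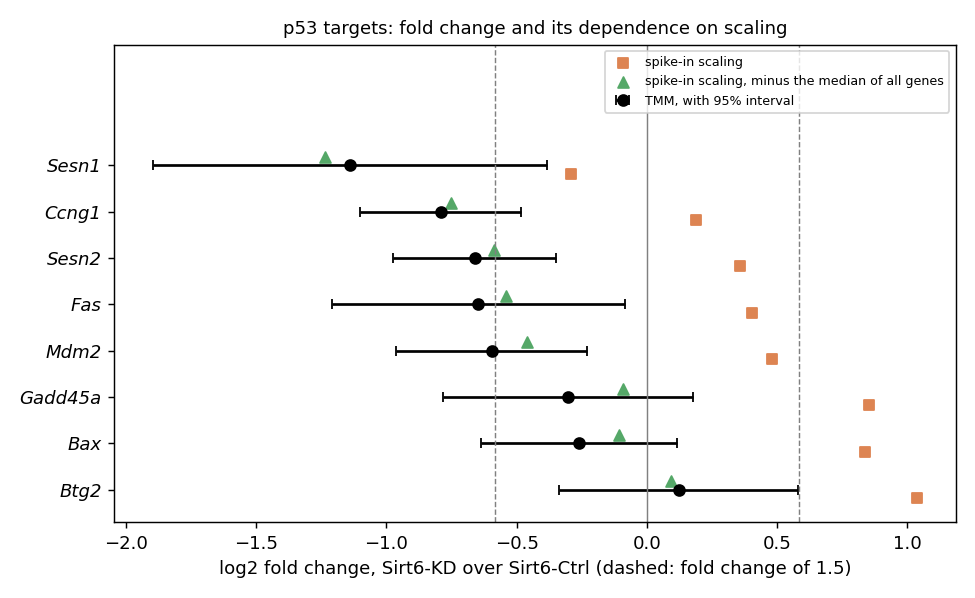
Log2 fold change (Sirt6-KD over control) of each of the 8 targets on the horizontal axis, with TMM normalization and its 95% interval (black), after scaling to spike-ins (orange) and after that scaling minus the median gene (green). With spike-in scaling 7 of the 8 values are above 0, and relative to the median gene 7 of the 8 are below 0.

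The sign of the fitted values depends on how libraries are put on 1 scale. With each library scaled to its spike-ins, the typical gene moved to a median of 0.94 (log2), and 20 genes were called higher and 4 lower among 13250 (edgeR). None of the 8 targets was called on that scale, with log2 fold changes of 0.48 for Mdm2, 0.19 for Ccng1, 0.36 for Sesn2, -0.29 for Sesn1, 0.40 for Fas, 0.84 for Bax, 0.85 for Gadd45a and 1.04 for Btg2. Relative to the median gene the same values were -0.46, -0.75, -0.59, -1.24, -0.54, -0.11, -0.091 and 0.095. Mdm2, Ccng1, Sesn1 and Sesn2 were therefore lower relative to most genes of these cells, whereas per spike-in 3 of these 4 had values above 0. The spike-in values of Mdm2, Ccng1, Sesn1 and Sesn2 had SEs of 0.42, 0.46, 0.61 and 0.45, and none was distinguishable from 0.

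The genes that act on p53 itself were followed in a list of 16 regulators, of which 14 were tested. Hipk2, a kinase that phosphorylates p53, was the 1 gene of the list called higher, against 8.02% of all genes, and 0 were called lower. It went from 8.11 ± 2.07 to 16.5 ± 4.05 CPM, a log2 fold change of 1.03 (SE 0.27, adjusted p = 0.0242, edgeR's quasi-likelihood test), and the call was lost without S5 (1.01), S7 (1.06) or S8 (0.92). Mdm4, the MDM2 relative that binds and masks p53, was at 9.88, 10.9, 29.7 and 9.65 CPM in S1 to S4 and at 27.3, 35.2, 41.2 and 23.4 CPM in S5 to S8. Its S3 control was at the level of Sirt6-KD while the other 3 controls were lower, and the log2 fold change of 1.08 (SE 0.38, adjusted p = 0.0628, edgeR's quasi-likelihood test) was not called, although it was without S3 (1.65, edgeR adjusted p = 0.00123). Without S1 and S2 it was 0.70 (edgeR adjusted p = 0.278). The median of the list was 0.029.

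A second list held 40 other p53 targets, of which 34 were tested. Here 6 fell and 2 rose, where 10.7% of all genes were called lower and 8.02% higher, with 18 positive and 16 negative fold changes and a median of 0.064, so the list as a whole did not share the negative median of the 8 targets above. All Sirt6-KD libraries lay below all controls for 8 of the 34 and above for 4, beside 15.6% and 14.8% of all genes. Bak1, which forms mitochondrial pores like Bax, went from 70.6 ± 2.87 to 38.9 ± 2.93 CPM, a log2 fold change of -0.86 (SE 0.12, adjusted p = 0.00285, edgeR's quasi-likelihood test). Ei24, an endoplasmic reticulum protein of autophagy, fell by 0.73 on the log2 scale, and Gtse1, a microtubule-associated protein of dividing cells that restrains p53, fell by 1.04. Tigar, a phosphatase that lowers glycolytic flux, fell by 1.20, from 27.3 ± 6.17 to 11.9 ± 3.75 CPM. Gpx1, a glutathione peroxidase, fell by 0.88 and Phlda3, a pleckstrin homology protein that competes with AKT for membrane lipids, by 0.71. The edgeR adjusted p of these 5 lay between 0.00823 and 0.0195. Of the 6, Gpx1 lost its call without S1 (-0.77), S5 (-0.90), S6 (-0.90) or S7 (-0.79), and Phlda3 without S1 (-0.57), S5 (-0.70), S6 (-0.68) or S7 (-0.69), while the other 4 kept theirs with any 1 library left out. Without S1 and S2 together 4 of the list were called lower, as Gpx1 (-0.51, edgeR adjusted p = 0.114) and Phlda3 (-0.42, edgeR adjusted p = 0.0544) were not. Scaled to spike-ins, only Tigar of the 6 stayed below 0 (-0.22), beside a median of 0.94 over all genes.

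The 2 genes of that list that rose kept their calls with any 1 library left out. Plk2, a polo-like kinase induced by stress, went from 33.5 ± 8.90 to 70.8 ± 3.29 CPM, a log2 fold change of 1.08 (SE 0.19, adjusted p = 0.00573, edgeR's quasi-likelihood test). Cd82, a tetraspanin of the cell surface, went from 116.8 ± 16.7 to 206.4 ± 2.83 CPM, a log2 fold change of 0.82 (SE 0.13, adjusted p = 0.00413, edgeR's quasi-likelihood test). Scaled to spike-ins neither was called, at 2.05 for Plk2 and 1.71 for Cd82 (edgeR adjusted p = 0.0734 and 0.0832).

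**Figure D3:**
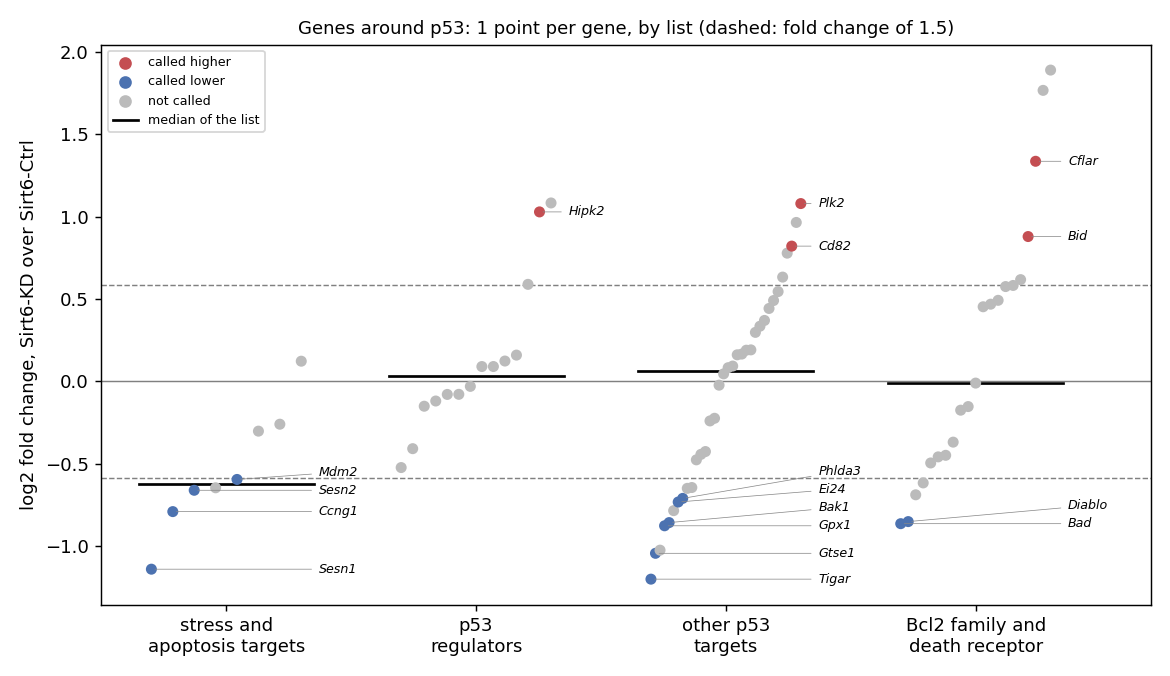
Log2 fold change (Sirt6-KD over control) of each gene tested, 1 point per gene, in the 8 p53 targets of stress and apoptosis and in the 3 lists around them, with called genes coloured and named. Black lines are the list medians: -0.62 for the 8 targets, against 0.029, 0.064 and -0.011 for regulators, other targets and the Bcl2 family and death receptor genes.

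Bax and Fas act against inhibitors, and 27 genes of the Bcl2 family and of death receptor signalling were listed with them, of which 21 were tested. Of these, 2 rose and 2 fell, near the shares over all genes (8.02% and 10.7%), and the median log2 fold change was -0.011. All Sirt6-KD libraries lay above all controls for 8 of the 21 and below for 4, beside 14.8% and 15.6% of all genes. Cflar, which encodes the caspase-8 inhibitor c-FLIP, was at 13.6 to 36.8 CPM in Sirt6-Ctrl and at 60.4 to 64.3 CPM in Sirt6-KD. The rise of 1.34 on the log2 scale (SE 0.25, adjusted p = 0.00754, edgeR's quasi-likelihood test) was kept with any 1 library left out. Bid, the BH3-only protein that caspase-8 cleaves, rose by 0.88, and the call was lost without S1 (0.85), S5 (0.82) or S6 (0.78). Bad, another BH3-only protein, fell by 0.86, and Diablo, an antagonist of the inhibitor of apoptosis proteins, by 0.85, though both were above 0 (0.15 and 0.27) when scaled to spike-ins. The call of Bad was lost without S1 (-0.78), S7 (-0.75) or S8 (-0.81), and that of Diablo without S1 (-0.69), S5 (-0.89), S6 (-0.76) or S7 (-0.85). Without S1 and S2 together Bid (0.83), Bad (-0.72) and Diablo (-0.48) all lost their calls, with edgeR adjusted p from 0.0755 to 0.105.

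Of the anti-apoptotic partners of Bax, neither of those set against it was called. Bcl2l1, which encodes BCL-XL, was at 80.0 to 113.6 CPM in Sirt6-Ctrl and 143.2 to 157.9 CPM in Sirt6-KD, so the groups did not overlap. Its log2 fold change of 0.57 had an adjusted p of 0.0157 by edgeR's quasi-likelihood test and fell just short of the fold threshold. It was called higher without S1 (0.59), S2 (0.65), S3 (0.62) or S8 (0.63). The same held without S1 and S2 together (0.66, edgeR adjusted p = 0.0236). Of the 18 alternatives described below, 11 called it higher and 7 did not. RLE scaling (0.59), DESeq2 (0.59) and limma-voom (0.59) were among the 11. Bcl2 was measured from 3 to 47 counts in Sirt6-Ctrl and from 65 to 122 counts in Sirt6-KD, and its log2 fold change of 1.89 (SE 0.75, adjusted p = 0.0943, edgeR's quasi-likelihood test) was not called.

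Ratios of 2 genes within a library do not depend on the scaling of libraries, and 8 were compared. Only their difference between the groups is read here, since the level of a ratio also reflects the lengths of the 2 genes. In 4 of them the groups did not overlap, and all 4 were lower in Sirt6-KD. How often this holds over all pairs of genes was not counted. Of single genes, 15.6% had all Sirt6-KD libraries below all controls and 14.8% above. Whether a ratio is lower or higher follows from which gene is put first. Bcl2l1, Bcl2 and Cflar, which were put second, by themselves had all Sirt6-KD libraries above all controls, while Bax and Fas overlapped. The log2 ratio of Bax to Bcl2l1 was 0.56 ± 0.24 in Sirt6-Ctrl and -0.26 ± 0.16 in Sirt6-KD, a difference of -0.82. That of Bax to Bcl2 differed by -2.56 (8.10 ± 1.91 against 5.54 ± 0.51), and by -1.64 without S2, the library with 3 counts of Bcl2. For the death receptor route, the ratio of Fas to Cflar was -0.61 ± 0.93 and -2.68 ± 0.34, a difference of -2.06. For the p53 inhibitors, the ratio of Mdm2 to Mdm4 was 5.38 ± 0.91 and 3.57 ± 0.18, a difference of -1.81. Each of these 4 had p = 0.0286 in the exact two-sided permutation test, the smallest that 4 libraries against 4 allow, and 0.0571 after Benjamini-Hochberg adjustment over the 8 ratios, so none passed 0.05.

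The other 4 ratios overlapped between the groups. Gadd45a to Gadd45b, a stress-induced relative, differed by -0.44 (exact two-sided permutation p = 0.0857, adjusted 0.137) and by -0.28 without S1, and Btg2 to Btg1, its nearest relative, by -0.047 (exact two-sided permutation p = 0.886), with values on both sides of 0 (-0.31 without S8 to 0.21 without S4). Mdm2 to Ccng1 and Sesn2 to Sesn1 had adjusted values of 0.392 and 0.267 in the same exact permutation tests.

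**Figure D4:**
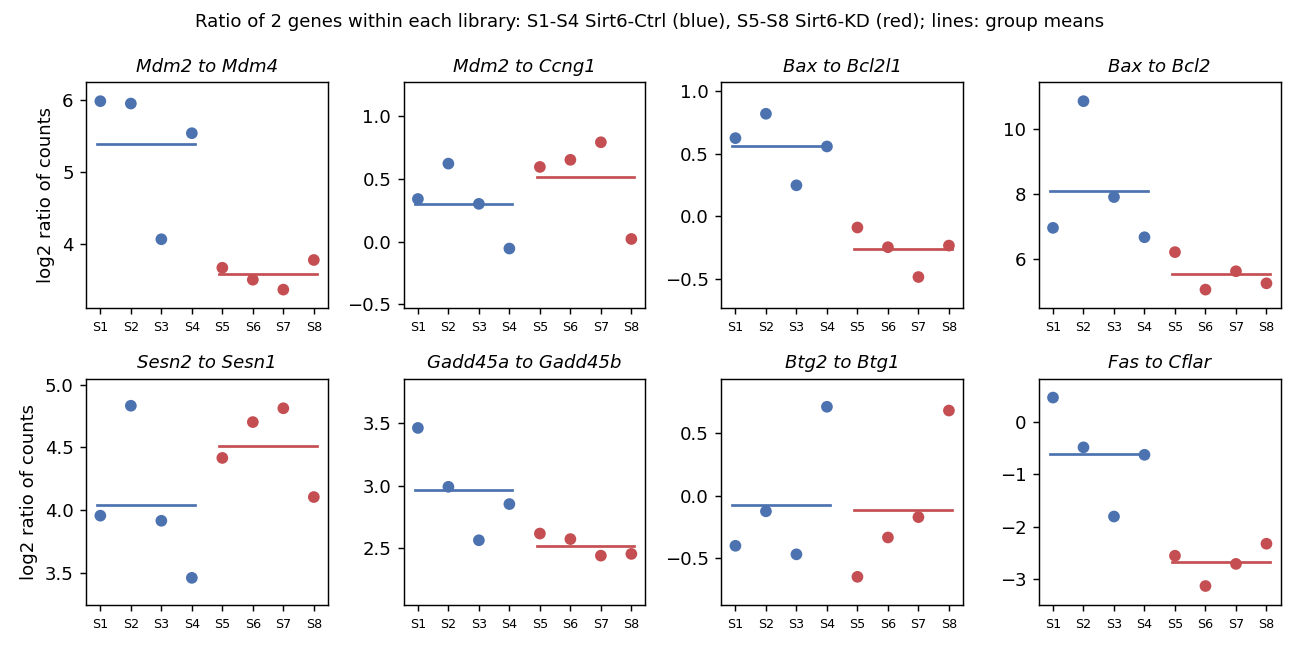
Log2 ratio of counts of 2 genes within each library (0.5 added to each count), with S1 to S4 Sirt6-Ctrl in blue, S5 to S8 Sirt6-KD in red and lines for group means; the vertical axes do not start at 0. The groups are apart for Mdm2 to Mdm4, Bax to Bcl2l1, Bax to Bcl2 and Fas to Cflar, and overlap for the other 4.

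For each of the 4 targets that fell, the tested gene outside the list with the most similar pattern was found by the root mean square difference of log2 CPM over the 8 libraries, each gene centred on its Sirt6-Ctrl mean. This distance includes the shift between the groups, so a gene nearest to a target that fell is bound to show a similar fall. The gene nearest to Ccng1 was Ei24, at 0.0446 against a median of 0.789 over all genes, and it is also on the list of other p53 targets. Ufm1, which encodes a ubiquitin-like modifier, was nearest to Sesn2 at 0.0787 (median 0.721), and LOC103692716 was nearest to Mdm2 at 0.0688 (median 0.693). Zdhhc24, a putative palmitoyltransferase gene, was nearest to Sesn1 at 0.193 (median 1.06), a wider distance than for the other 3.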

How the data were processed

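RNA-seq libraries of 4 Sirt6-Ctrl and 4 Sirt6-KD cultures of rat NP cells were grouped by the genotype in the labels. The deposited count table holds 32975 rows of unscaled read counts, 92 of them ERCC spike-ins. The submitters' processing notes name Trimmomatic 0.36, STAR 2.5.2b, featureCounts of Subread 1.5.2, DESeq2 and Rnor_6.0, and whether counting used strand is not given in the sources used here. A second deposited table holds gene names, which were used, and the authors' normalized signal, log2 fold changes and p-values, which were not.

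Rows were filtered with filterByExpr, which kept 13313 rows (63 of them spike-ins), scaled by TMM and tested with glmQLFit and glmQLFTest of edgeR 4.0.16 (R 4.3.3), as a two-sided test whose p-values were adjusted by Benjamini-Hochberg over those rows. Calls needed an adjusted p under 0.05 and more than a 1.5-fold change. Members, lists, tests and alternatives were chosen with earlier results of these data known. The rule for named genes took all 9 targets, Sirt6, the called genes of each list, both genes of each ratio and the nearest gene in pattern, and 1 further gene that is not reported here. The search for a pair of decamers was added later, after the sequences were seen. Ratios of counts (0.5 added) were compared by exact two-sided permutation over 70 splits. The ratio of Bbc3 to Mcl1 is not analysed here.

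A floor of 3 counts was 0.0727 to 0.0928 CPM, for counting error only. No 2 libraries of a group agreed within sampling noise. The chi-square per gene was 87.0 to 289 between Sirt6-Ctrl pairs and 17.7 to 69.3 between Sirt6-KD pairs, so the controls were more scattered. The test was checked on simulated counts. Alternatives were other filters, RLE scaling, spike-in scaling, removal of spike-in rows, DESeq2 1.42.0, limma-voom (limma 3.58.1), glmTreat, no fold minimum, each library left out in turn, and S1 and S2 left out. Labels and count columns carry no rat number shared by the groups, so nothing was paired.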

Additional observations from a re-analysis of the deposited data

Results flagged for a closer look

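In 3 of the 56 groups of 4 libraries examined (28 genes in 2 groups each), 1 library lay far from the other 3 by Dixon's test, while chance gives about 2.8, 1 in 20. Mdm4 was highest in S3 at 29.7 CPM (Dixon ratio 0.938) among the Sirt6-Ctrl libraries. Bad was lowest in S3 at 24.7 CPM (0.888), and Btg1 was lowest in S4 at 119.6 CPM (0.878). None of the 8 p53 targets of stress and apoptosis had such a library in either group.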

How the results depend on the processing

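The number of the 8 targets called lower was 4, and 2 with no count filter, 0 with spike-in scaling, 0 with glmTreat against a fold change of 1.5 and 2 without S1 and S2, and it ranged from 1 to 5 with 1 library left out. Of the 18 alternatives, 16 kept the call of Ccng1, 14 that of Sesn2, 9 that of Sesn1 and 5 that of Mdm2. RLE scaling, removal of the spike-in rows and DESeq2 each called 3 (Ccng1, Sesn1 and Sesn2).

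Regulators called higher were 0 with spike-in scaling, 3 with DESeq2, 2 with limma-voom and 0 with glmTreat (0 to 2 with 1 library left out). Other p53 targets called higher and lower were 0 and 0 with spike-in scaling and with glmTreat (2 to 3 and 4 to 7 with 1 library left out). Bcl2 family and death receptor genes called higher were 4 with no filter, RLE scaling, spike-in rows removed or no fold minimum, 7 with DESeq2, 5 with limma-voom, and 0 with spike-in scaling or glmTreat (1 to 6 with 1 library left out). Those called lower were 0 with spike-in scaling, with glmTreat and without S1 and S2 (0 to 3 with 1 library left out).

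Spike-in scaling turned the log2 fold change of Mdm2 to 0.48, Ccng1 to 0.19, Bax to 0.84, Gadd45a to 0.85, Sesn2 to 0.36, Fas to 0.40, Bak1 to 0.11, Ei24 to 0.25, Gtse1 to 0.0064, Gpx1 to 0.25, Phlda3 to 0.38, Bad to 0.15 and Diablo to 0.27, where the median of all genes was 0.94. Leaving out S1 and S2 turned Bax to 0.015 and Gadd45a to 0.15, and Btg2 ranged from -0.0072 to 0.31 with 1 library left out. The cause was not tested. No paired analysis was possible because the labels and columns carry no replicate number shared by the groups.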
